A study of Mus musculus with 6 samples.

Results

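The intercalated disc is the specialised cell border through which neighbouring cardiomyocytes (CMs) are joined. Gap junctions let current pass between the cells, adherens junctions tie the thin filaments of the last sarcomeres to the membrane, and desmosomes anchor the intermediate filaments. In the rodent heart these structures lie all around the young CM and gather at its ends in the weeks after birth, so the days around birth are a time of assembly. Here 10 genes of the disc, chosen by symbol, were followed in single CMs of the mouse left ventricle: Gja1, Cdh2, Dsp, Pkp2, Jup, Dsg2, Dsc2, Ctnna3, Vcl and Tjp1. They are 10 of the 27998 genes in the count tables, and each had exactly 1 row there.

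The cells came from C57BL/6J mice taken at embryonic day 16.5 (E16.5), the first day after birth (P1) or postnatal day 5 (P5). They were fixed in methanol, stained for the muscle myosin MYH1 and for DNA with Hoechst, and sorted by flow cytometry into diploid (2n) and tetraploid (4n) CMs, with no other allele or agent in any group. Each age and ploidy was 1 droplet library made from 3 pooled sorts, so no condition had a replicate library, and the 2n and 4n libraries of an age shared their litters. A 4n gate takes cells in G2 as well as polyploid and binucleated cells, which DNA content does not tell apart. It can also take joined 2n cells. The paper describes clumps among the sorted cells as scarce, and no doublet caller was run here.

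The 6 libraries held 31156 cells, of which 30733 (98.6%) had at least 1 UMI (a counted molecule) of each of the 4 sarcomere genes Tnni3, Tnnt2, Tnnc1 and Actc1 and were used as CMs. Per library there were 3654 to 7340 CMs with 13070343 to 19665830 UMIs in total, and the median CM had 1831 to 4658 UMIs. Pairs of libraries had 17 to 62 cell barcodes in common. Other cell types were not absent: 2.79% of the CMs of E16.5-2n and 36.9% of those of P1-4n had 3 or more UMIs of a list of 32 endothelial, fibroblast, mural, immune and epicardial genes, and all genes of these lists had at least 1 UMI. CMs with 3 or more UMIs of a list of 24 cell cycle genes made up 2.93% (P1-2n) to 56.7% (E16.5-4n) of a library. The stromal and cell cycle shares given here were counted at full depth, which differed between the libraries.

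A level and a difference are given for each gene. The level (CPM) scales the UMIs summed over a library's CMs to a total of 1000000, with an interval that covers counting error only. The difference between 2 libraries is the log2 ratio of CPM minus its median over every gene that reached 100 UMIs in the pair, here called the centred log2 ratio, and a gene is called higher or lower when it passes 1.5-fold on this scale. The median of all genes itself fell by 0.45 (2n) and 0.51 (4n) on the log2 scale between E16.5 and P5, so a gene whose CPM stayed level was higher than most genes at P5. The counts are of 3′ ends, so that levels of different genes are compared without regard to length.

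Together the 10 genes gave 115061 UMIs, 0.115% of all UMIs in CMs. Their summed CPM was highest in P1-2n (1244) and lowest in P5-4n (1060 CPM), a range of 1.17-fold. Each single gene varied more than this sum, from 1.31-fold for Cdh2 to 1.91-fold for Dsg2. The genes changed in different directions, and the sum hid this.

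**Figure D1:**
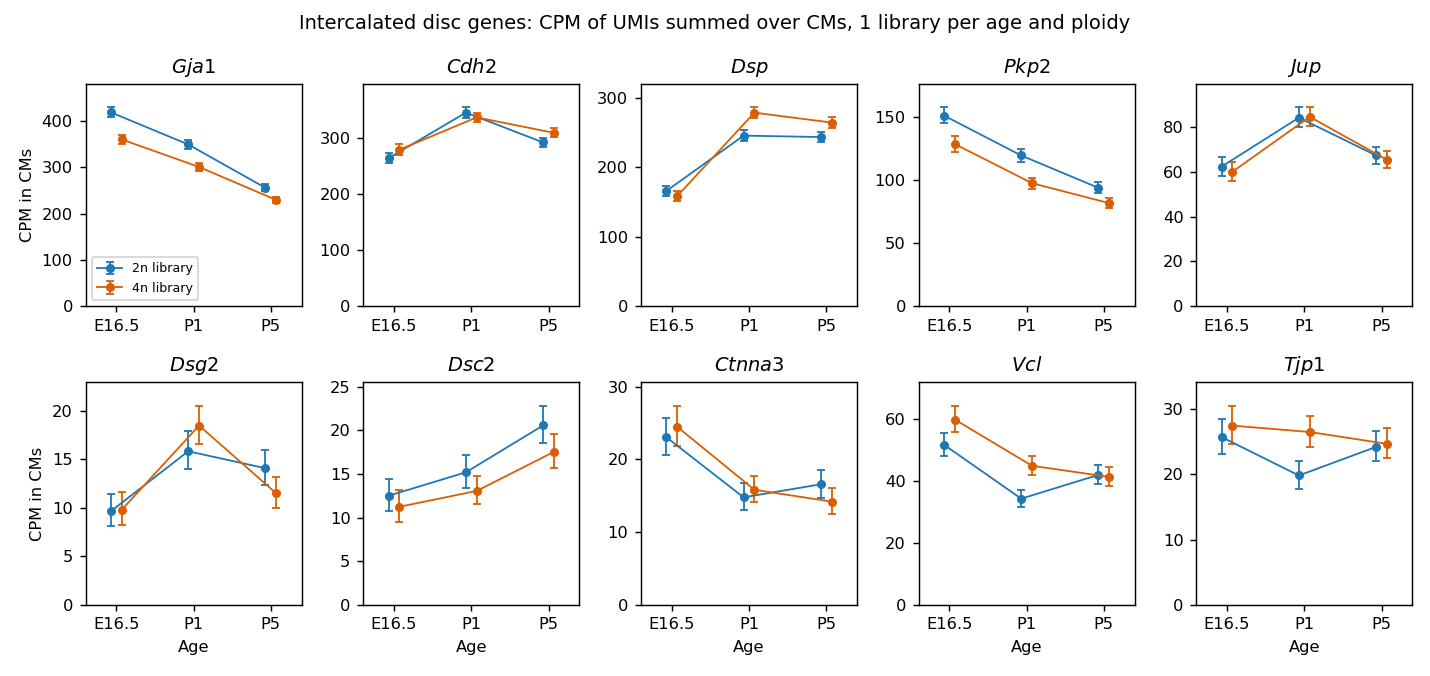
CPM of each of the 10 intercalated disc genes (vertical axis, starting at 0) at E16.5, P1 and P5 in the 2n libraries (blue) and 4n libraries (orange), with 95% counting intervals. Gja1 and Pkp2 step down at each age with 2n above 4n, while Dsp, Cdh2 and Jup are higher at P1 than at E16.5.

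Gja1 encodes connexin 43, the main gap junction channel protein of the working ventricle. From E16.5 over P1 to P5 its level was 419, 349 and 256 CPM in 2n CMs and 360, 301 and 229 CPM in 4n CMs. Each later library was lower than the earlier library of its ploidy, and each 4n library was lower than the 2n library of its age, with no overlap of the counting intervals. Relative to all genes the step from E16.5 to P1 was small, with centred log2 ratios of 0.07 (95% interval 0.02 to 0.13) in 2n and 0.04 (-0.02 to 0.10) in 4n. From P1 to P5 they were -0.36 (-0.41 to -0.30) and -0.23 (-0.29 to -0.17), all within 1.5-fold. Without CMs that had a UMI of the cell cycle list the 4n ratio was -0.19 from E16.5 to P1 and 0.00088 from P1 to P5.

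Pkp2 encodes plakophilin 2, a desmosomal plaque protein. At the successive ages the 2n libraries held 151, 120 and 94.0 CPM, and the 4n libraries 129, 97.7 and 81.8 CPM. The order of the 6 libraries by age and by ploidy was that of Gja1. Over the 6 libraries, Gja1 and Pkp2 had the most similar profiles among the 45 pairs of these genes. The Euclidean distance was 0.146 between their log2 CPM, each minus its own mean over the 6 libraries. Between Pkp2 and Dsp, also a gene of the desmosomal plaque, it was 1.46. The fall of the median of all genes with age is not taken out of this distance. From E16.5 to P5 the centred log2 ratios were -0.24 (2n) and -0.15 (4n) for Pkp2, and -0.26 and -0.14 for Gja1. The likeness is a description over 6 libraries and was not tested.

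Dsp encodes desmoplakin, which links the desmosomal plaque to desmin filaments. In 2n CMs it stood at 166 CPM before birth and at 246 and 244 CPM at P1 and P5, and in 4n CMs at 159, 279 and 265 CPM. The 2 E16.5 libraries lay below all 4 later libraries, and P1 and P5 differed little. The centred log2 ratio from E16.5 to P1 was 0.90 (0.83 to 0.98) in 2n CMs and 1.11 (1.04 to 1.19) in 4n CMs. From P1 to P5 it was 0.08 in both.

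The promoters of Gja1 and Dsp are shown because these 2 genes had opposite courses by CPM. Gja1 was lower and Dsp higher in each postnatal library than in both E16.5 libraries. For Gja1 the counting intervals of P1-2n and E16.5-4n overlapped. Relative to all genes, Gja1 was not lower at P1 than at E16.5 (centred log2 ratios 0.07 in 2n and 0.04 in 4n). Each is the stretch of 250 bases before the RefSeq start (GRCm38.p6, + strand), at chr10:56377050-56377299 for Gja1 and chr13:38151044-38151293 for Dsp. Capitals mark matches on either strand to the letters CACCTG (the E-box type bound by ZEB1), TGACTCA (AP-1), GGGCGG (GC box), CCAAT and TATAAA, none of which contains another.
Gja1: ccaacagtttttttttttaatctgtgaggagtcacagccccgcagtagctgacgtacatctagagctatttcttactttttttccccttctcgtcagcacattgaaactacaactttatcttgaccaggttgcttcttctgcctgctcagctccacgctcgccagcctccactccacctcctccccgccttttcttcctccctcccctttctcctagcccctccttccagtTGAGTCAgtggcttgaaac
Dsp: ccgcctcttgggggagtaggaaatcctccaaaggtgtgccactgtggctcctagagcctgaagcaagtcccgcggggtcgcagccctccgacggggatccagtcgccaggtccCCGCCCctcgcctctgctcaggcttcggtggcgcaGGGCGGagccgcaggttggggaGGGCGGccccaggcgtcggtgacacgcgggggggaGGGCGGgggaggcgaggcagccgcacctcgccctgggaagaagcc
The Gja1 stretch was 50% G and C and held 1 AP-1 match, which 4.46% of the 32851 promoters in the table hold. The Dsp stretch was 72.4% G and C and held 4 GC boxes, a motif found in 32.7% of all promoters. CACCTG was in 0 of the 8 entries of the 6 members with a promoter used here (Gja1, Dsp, Jup, Ctnna3, Vcl, Tjp1), against 17.2% of all promoters. Of these 8 entries, 5 held a GC box and 1 the AP-1 letters. CCAAT was in 2 and TATAAA in 1, against 33.8% and 12.4% of all promoters. Cdh2, Dsg2 and Dsc2 were left out, and Pkp2 had no entry. These matches are letters in a window and show no binding.

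The desmosomal cadherins, which span the gap between the cells, had the fewest UMIs of the 10 over all libraries (1355 for Dsg2 and 1529 for Dsc2, followed by 1769 for Ctnna3). Dsg2, desmoglein 2, had 9.64, 15.8 and 14.1 CPM in the 2n libraries, by age, and 9.79, 18.5 and 11.5 CPM in 4n. The P1 value was the highest in each ploidy, and its centred log2 ratio from E16.5 to P1 was 1.05 (0.75 to 1.35) in 2n and 1.21 (0.92 to 1.52) in 4n. Dsc2, desmocollin 2, had 12.5, 15.2 and 20.6 CPM in 2n and 11.2, 13.1 and 17.6 CPM in 4n. It was higher at each later age in both ploidies, and its centred log2 ratio from E16.5 to P5 was 1.17 (0.91 to 1.43) in 2n and 1.15 (0.86 to 1.44) in 4n. From P1 to P5 the ratios of Dsc2 were 0.53 (0.30 to 0.77) and 0.59 (0.34 to 0.83), and those of Dsg2 were -0.08 (-0.33 to 0.18) and -0.53 (-0.78 to -0.28).

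Jup encodes plakoglobin, a catenin of both desmosomes and adherens junctions. The 2n CMs had 62.4, 84.2 and 67.3 CPM from the youngest age to the oldest, and the 4n CMs 60.1, 84.6 and 65.4 CPM. Its centred log2 ratio from E16.5 to P1 was 0.77 (0.65 to 0.89) in 2n and 0.79 (0.67 to 0.92) in 4n. From P1 to P5 the ratios were -0.23 and -0.21. Both P1 libraries stood above the other 4, and the ploidies did not differ beyond their counting intervals.

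Cdh2, N-cadherin, is the classical cadherin of the adherens junction. By age, 2n CMs had 264, 345 and 292 CPM of it, and 4n CMs 279, 337 and 309 CPM. Its profile resembled that of Jup (distance 0.220, the next closest pair), with P1 highest. The centred log2 ratio from E16.5 to P1 was 0.72 (0.66 to 0.78) in 2n and 0.57 (0.51 to 0.63) in 4n, on either side of 1.5-fold.

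Ctnna3 and Vcl encode proteins that tie junctions to actin. Ctnna3, αT-catenin, a catenin of the heart's mixed junctions, was at 23.0, 14.8 and 16.6 CPM in 2n CMs and 24.5, 15.8 and 14.2 CPM in 4n CMs. Vcl, vinculin, was at 51.8, 34.4 and 42.1 CPM in the 2n libraries from E16.5 to P5 and at 59.98, 45.0 and 41.4 CPM in the 4n libraries. Both were highest at E16.5 by CPM, while none of their centred log2 ratios passed 1.5-fold (-0.33 to 0.26 for Ctnna3 and -0.26 to 0.39 for Vcl over the 6 age comparisons). Tjp1, the scaffold ZO-1 that binds connexin 43, was at 25.7, 19.8 and 24.2 CPM in 2n and 27.5, 26.5 and 24.7 CPM in 4n, the lowest value being that of P1-2n.

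**Figure D2:**
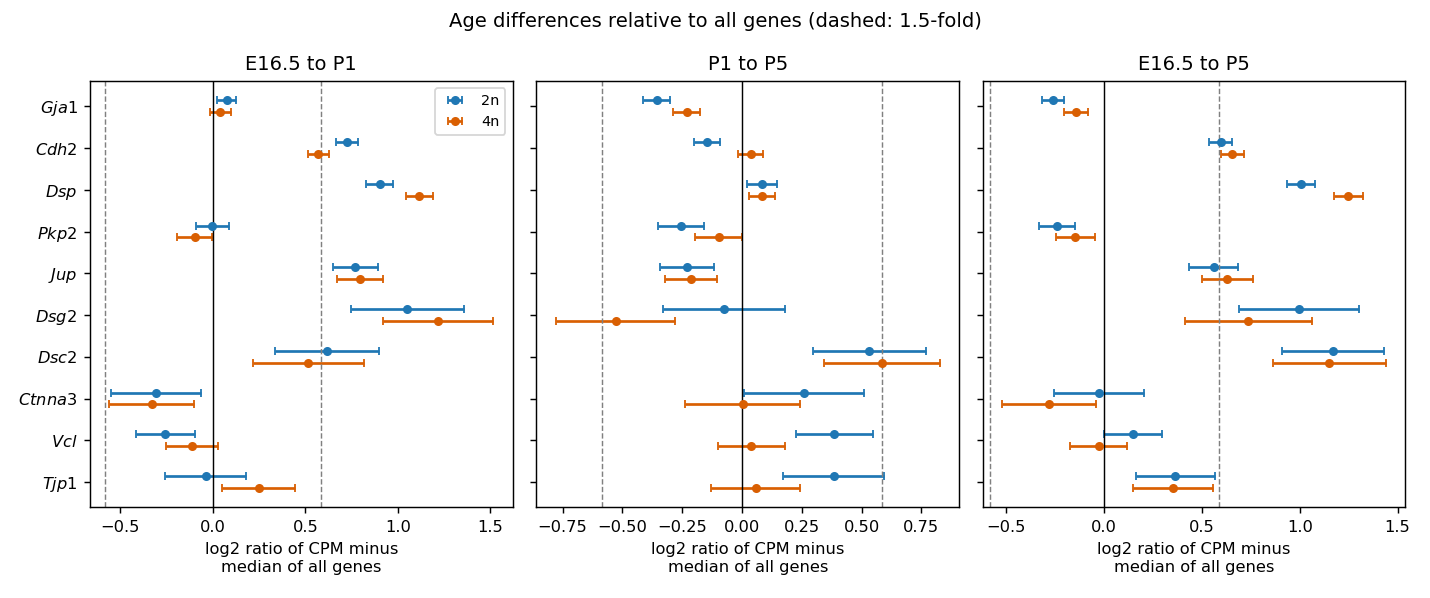
Centred log2 ratios of the 10 genes between ages (horizontal axis) in 2n (blue) and 4n (orange) CMs, with 95% counting intervals and dashed lines at 1.5-fold. Dsp, Dsg2, Dsc2 and Cdh2 lie past the line from E16.5 to P5 in both ploidies, and Jup in 4n alone. The desmosomal gene Pkp2 lies below 0 there (-0.24 in 2n and -0.15 in 4n). No gene lies past the line on the lower side.

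Between E16.5 and P1, 5 of the 10 genes were called higher in 2n CMs (Cdh2, Dsp, Jup, Dsg2, Dsc2), where 12.3% of all genes were, and 0 were called lower, against 14.4%. In 4n CMs 3 were higher (Dsp, Jup, Dsg2) against 14.1% of all genes, and 0 were lower against 15.6%. Without centring, only Dsg2 of the 5 passed 1.5-fold in 2n, and Ctnna3 and Vcl passed it on the lower side. On that scale the median of all genes was at -0.34, and the share of all genes past 1.5-fold was not counted.

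Between P1 and P5, 0 genes were called in 2n CMs, against 9.31% of all genes called higher and 6.10% lower. In 4n CMs only Dsc2 was higher (0.59, 0.34 to 0.83), at the very edge of the threshold, against 7.91%, and 0 were lower against 10.5%. On the lower side the nearest to the threshold was Dsg2 in 4n.

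From E16.5 to P5, 4 were called higher in 2n (Cdh2, Dsp, Dsg2, Dsc2) against 17.2% of all genes, and 5 in 4n (the same 4 and Jup) against 17.4%. None was called lower, against 15.5% and 17.1%. The median centred log2 ratio of the 10 genes was 0.46 in 2n and 0.49 in 4n. These counts rest on the centring. Without it the medians were 0.01 and -0.02, and Gja1 (log2 ratio of CPM -0.71 and -0.65) and Pkp2 (-0.69 and -0.65) were lower past 1.5-fold in both ploidies, as was Ctnna3 in 4n (-0.79). On the higher side Dsc2 (0.72 and 0.64) then passed in both and Dsp (0.74) in 4n. The median of all genes without centring was -0.45 in 2n and -0.51 in 4n. The share of all genes past 1.5-fold on that scale was not counted. With the centring, Dsp (1.00 and 1.25) and Dsc2 (1.17 and 1.15) passed 2-fold in both ploidies. With 1 library per age and ploidy these age differences had no replicate check, and the age and the library cannot be told apart.

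The share of CMs with a UMI followed the levels once each CM was thinned to 1000 UMIs, which left out 0 to 700 CMs of a library. For Gja1 the share was 32.0%, 28.9% and 21.9% in the 2n libraries from E16.5 to P5 and 29.9%, 25.8% and 19.5% in the 4n libraries. For Dsp it was 15.6%, 22.9% and 22.5% in 2n and 14.5%, 25.5% and 22.8% in 4n. Without thinning the Gja1 share was 56.6% in E16.5-2n and 59.5% in P5-4n, so the fall with age was not seen in shares that carry the deeper sampling of the P5 libraries (median 4658 UMIs in P5-4n against 2240 in E16.5-2n). In 183 cells with 3 or more UMIs of 7 immune genes, which need not be CMs, the thinned share was 20.8% for Gja1 and 15.8% for Dsp (exact 95% intervals 15.1% to 27.4% and 10.9% to 21.96%), against 27.0% and 20.6% in 29651 other CMs, with unthinned medians of 3992 and 2706 UMIs. These cells came through the same sort and may be CMs or doublets with a CM. Their shares therefore cannot show whether a UMI in 1 droplet came from that cell, which was not tested. The levels above are sums over all CMs.

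4n CMs were compared with 2n CMs by a fit over the 6 libraries with age as a term. Gja1 was lower in 4n in 3 of 3 ages, with a log2 fold change of -0.25 (SE 0.059, edgeR quasi-likelihood test, adjusted p = 0.095 over 12604 genes). Pkp2 was likewise lower in 3 of 3, with -0.30 (SE 0.067, edgeR adjusted p = 0.092), and so was Dsc2 with -0.26 (SE 0.095, edgeR adjusted p = 0.20). None of the 10 genes passed an adjusted p of 0.05 in edgeR, 3 had an unadjusted p below it, and DESeq2 called 2 of them, Gja1 (adjusted p = 0.027) and Pkp2 (0.034). Over all genes edgeR called 1.5% higher and 0.151% lower. The share of all genes called by DESeq2 was not counted, so its 2 calls have no such share beside them. Dsp (0.02, SE 0.071) and Cdh2 (-0.01, SE 0.062) were close to 0 over the 3 ages together. For Dsp the single ages differed in sign. Its centred log2 ratio of 4n over 2n was -0.10 (-0.18 to -0.01) at E16.5. At P1 it was 0.13 (0.07 to 0.19) and at P5 0.10 (0.04 to 0.16).

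4n CMs more often held UMIs of the stromal and cell cycle lists. From E16.5 to P5, 23.1%, 36.9% and 16.4% of 4n CMs had 3 or more stromal UMIs, against 2.79%, 3.28% and 8.86% of 2n CMs. These stromal shares carry the depth of the libraries (median 3187 UMIs in P1-4n against 1831 in P1-2n). Thinning each CM to the same number of UMIs gave 13.4%, 17.2% and 4.98% in 4n by age. In 2n it gave 1.23%, 1.57% and 3.26%. The cycling class was larger in 4n at each age. Not all stromal genes were higher in 4n. For Abcc9, taken as mural, the centred log2 ratios of 4n over 2n were 0.01, 0.01 and -0.06 by age. Those of Rgs5 from the same list were 2.26, 2.44 and 0.47. In P1-2n Abcc9 made up 89.3 of the 281 CPM of the stromal list. Whether its UMIs came from CMs was not tested, and the stromal classes were not made without it. Leaving out CMs with a stromal UMI thus also leaves out any CM whose only such UMI was of Abcc9. Without CMs that had a stromal UMI, the ploidy difference of Gja1 was -0.16 (edgeR adjusted p = 0.24) and that of Pkp2 -0.14 (adjusted p = 0.39). Without CMs that had a cycling UMI, that of Gja1 was -0.11 (edgeR adjusted p = 0.63), while that of Pkp2 was -0.30 (adjusted p = 0.12). The sarcomere gene Tnnt2 was lower in 4n as well (-0.28, SE 0.038, edgeR adjusted p = 0.018).

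**Figure D3:**
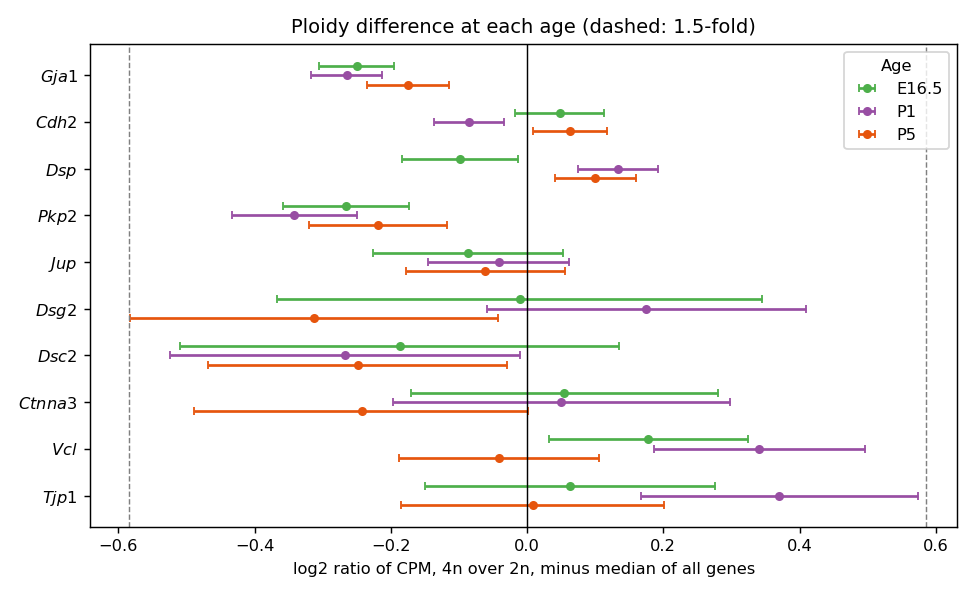
Centred log2 ratio of 4n over 2n at E16.5 (green), P1 (purple) and P5 (orange) for each gene, with 95% counting intervals and dashed lines at 1.5-fold. Gja1 and Pkp2 lie to the left of 0 at all 3 ages, and no gene passes 1.5-fold at any age.

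At the single ages 0 of the 10 genes passed 1.5-fold between ploidies. Of all genes, 8.65% were higher and 1.43% lower in 4n before birth. At P1 these shares were 8.75% and 0.425%, and they were 3.68% and 2.01% at P5. At P1 the largest differences were those of Tjp1 (0.37, 0.17 to 0.57), Vcl (0.34, 0.19 to 0.50) and Pkp2 (-0.34, -0.43 to -0.25). At P5 Vcl and Tjp1 were at -0.04 and 0.01.

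The cells whose cycle genes were on gave the clearest result for Gja1. CMs with 3 or more UMIs of the cycling list were compared with CMs of the same library that had 0, in a fit over 12 sums. Gja1 was at 358 CPM in cycling and 441 CPM in other CMs of E16.5-2n, at 325 and 433 in E16.5-4n, at 311 and 354 in P1-2n, at 266 and 310 in P1-4n, at 210 and 267 in P5-2n, and at 185 and 264 CPM in P5-4n. It was lower in 6 of 6 libraries, with a log2 fold change of -0.46 (SE 0.061, edgeR adjusted p = 2.1e-05). That is 27.2% lower on the TMM scale of the fit, which is relative to other genes and not CPM. With total UMIs in place of TMM the log2 fold change was -0.33. It also passed in 13 of 13 alternative settings.

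Dsp was lower in the cycling class by a log2 fold change of -0.37 (SE 0.073, edgeR adjusted p = 0.0011). Its level was 166 CPM in both classes of E16.5-2n and 155 against 160 CPM in E16.5-4n. After birth it was 180.5 in cycling against 250.2 CPM in other CMs of P1-2n, 234 against 301 in P1-4n, 213 against 256 in P5-2n, and 232 against 292 CPM in P5-4n. A term for the difference after against before birth, added after these values were seen, gave -0.46 (SE 0.11), and with an edgeR adjusted p = 0.60 over 11502 genes it did not pass, though its unadjusted p was below 0.05.

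Jup (-0.22, SE 0.064, edgeR adjusted p = 0.014) and Pkp2 (-0.18, SE 0.062, adjusted p = 0.036) were also called lower, but with total UMIs in place of the TMM scaling neither was (adjusted p = 0.32 and 0.51). Of 13 alternative settings, Jup was called in 9 and Pkp2 in 4. So 4 of the 10 genes were lower in cycling CMs and 0 higher, where 14.4% of all genes were lower and 13.0% higher. With total UMIs 2 were lower, Gja1 and Dsp, and the share of all genes under that scaling was not counted. Cdh2 missed the threshold (-0.13, SE 0.049, edgeR adjusted p = 0.055). Some genes of the stromal list moved with this class: of 30 stromal genes tested, 1 was called lower in cycling CMs and 9 higher. The lower gene was Abcc9 (-0.44, SE 0.070, edgeR adjusted p = 0.00012). The higher genes were 5 of 6 immune, 2 of 7 endothelial and 2 of 5 mural genes. Of 8 fibroblast and 4 epicardial genes 0 were called higher. Among the immune genes was the macrophage gene C1qc (2.35, SE 0.43, edgeR adjusted p = 0.00058). Without CMs that had a stromal UMI, 4 members were called lower. The sarcomere genes that define CMs here were lower in the same cells too, by -0.35 for Tnni3 (SE 0.047) and -0.40 for Actc1 (SE 0.056), with edgeR adjusted p = 2.1e-05 and 3.7e-05. The cycling class was deeper, with a median of 2506 to 5323 UMIs against 1710 to 4168, and with each CM thinned to 1000 UMIs before the classes were made, Gja1 and Dsp were still called.

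**Figure D4:**
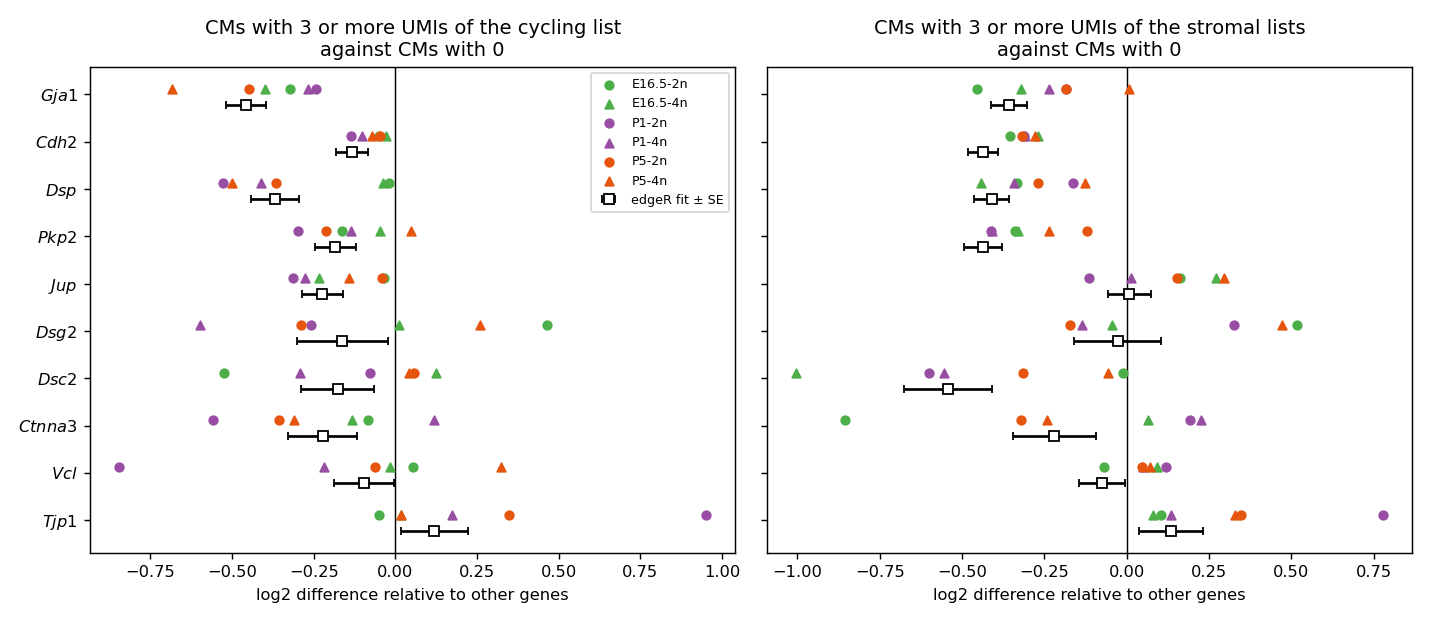
Left, log2 difference between CMs with 3 or more and CMs with 0 UMIs of the cycling list, relative to other genes, per library (coloured points, circles 2n and triangles 4n) and from the edgeR fit (open squares with SE). Right, the same for the stromal lists. In the left panel Gja1 lies below 0 in all 6 libraries, and Dsp is near 0 in both E16.5 libraries.

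Between E16.5 and P5, in 4n CMs with 3 or more UMIs of the cycling list, Dsp went from 155 to 232 CPM (centred log2 ratio 0.96, 0.86 to 1.06), Dsg2 from 9.49 to 12.5 CPM (0.77, 0.34 to 1.21) and Dsc2 from 11.3 to 17.7 CPM (1.03, 0.65 to 1.41). These 3 were called higher, where 15.5% of all genes were, and 0 were lower, against 14.4%. Cdh2 (0.58, 0.50 to 0.66) and Jup (0.58, 0.40 to 0.76) stood just inside the threshold. Gja1 went from 325 to 185 CPM (-0.44, -0.53 to -0.35), and it passed 1.5-fold when CMs were thinned (-0.80) or CMs with a stromal UMI were left out (-0.62). With thinning, Dsc2 was at 0.50 and not called. Without centring, Gja1 (log2 ratio of CPM -0.81) and Ctnna3 (-0.86) were past 1.5-fold on the lower side. Dsp (0.59) and Dsc2 (0.65) were past it on the higher side, and Dsg2 (0.40) was not. The median of all genes was then at -0.37, and the share of all genes past 1.5-fold was not counted. In the 4n CMs without a cycling UMI the centred log2 ratio was 1.34 for Dsp and -0.24 for Gja1.

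CMs with 3 or more UMIs of the stromal genes were set against CMs of the same library with 0. Pkp2 (-0.44, SE 0.057), Cdh2 (-0.44, SE 0.045) and Dsp (-0.41, SE 0.053) were lower in 6 of 6 libraries by CPM, with edgeR adjusted p = 2.7e-06, 9.2e-08 and 2.3e-06. Gja1 (-0.36, SE 0.055, edgeR adjusted p = 1.8e-05) was lower in 5 of 6, and Dsc2 (-0.54, SE 0.13, edgeR adjusted p = 0.0024) in 4 of 6. With total UMIs in place of TMM, Dsc2 was no longer called (edgeR adjusted p = 0.055). So 5 of the 10 were called lower and 0 higher, where edgeR called 21.1% and 19.4% of all genes. The sarcomere genes moved alike, from -0.40 for Tnni3 to -0.45 for Actc1.

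Jup (0.01, SE 0.065), Vcl (-0.08, SE 0.070) and Tjp1 (0.13, SE 0.096) were not called in that fit. Neither were Dsg2 (-0.03, SE 0.13) and Ctnna3 (-0.22, SE 0.13). By CPM, Tjp1 was higher in the stromal class in 6 of 6 libraries and Jup in 5 of 6, and with total UMIs in place of TMM both were called higher (edgeR adjusted p = 0.011 and 0.016). These are genes that endothelial and other cells also use, and the part of such RNA in their levels was not tested.

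Other genes of the same structures were taken from lists by role. Of 5 further gap junction genes 2 had enough UMIs in the 2n pair from E16.5 to P5. Gja5, connexin 40 of the conduction system and atria, had 20.7, 4.93 and 3.51 CPM in 2n by age, and 14.4, 9.92 and 2.93 CPM in 4n, and Gjc1, connexin 45, had 23.9, 19.2 and 22.8 CPM, and 28.9, 24.5 and 19.5 CPM. The mean centred log2 ratio from E16.5 to P5 was -1.95 for Gja5 and 0.16 for Gjc1. The sum of a list of 5 genes taken as atrial markers fell from 2915 and 2308 CPM at E16.5 to 211 and 87.7 CPM at P5. Most of it was Myl4 and Myl7 (2150 and 720 CPM in E16.5-2n). Stard10 of that list was higher at P5 (centred log2 ratios 0.93 in 2n and 0.64 in 4n). The tissue was left ventricle, and whether the UMIs of this list or of Gja5 came from atrial or ventricular CMs was not tested.

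Of 16 further adherens junction symbols, 15 were measured. The other, Afdn, is a later symbol of Mllt4, which was measured. Of the 15, 5 (2n) and 6 (4n) were higher at P5 than at E16.5, with 2 and 3 lower. Of all genes, 17.2% (2n) and 17.4% (4n) were called higher and 15.5% and 17.1% lower. Xirp2, which binds actin at the disc, had the largest mean centred log2 ratio (4.26), from 3.08 to 44.2 CPM in 2n and 3.44 to 45.5 in 4n. The catenins Ctnna1 (αE-catenin) and Ctnnb1 (β-catenin) had 0.69 and 0.09, and Zyx, zyxin of focal adhesions, had -0.99. Cdh13, a cadherin without a cytoplasmic tail, had 1.44, and Nrap, which anchors end sarcomeres, 1.11.

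Of 9 further genes of desmosomes and membrane or filament links, 6 were measured and 3 were higher in each ploidy, with 0 lower. The shares of all genes were 17.2% (2n) and 17.4% (4n) higher and 15.5% and 17.1% lower. Perp (mean 0.82), a desmosomal membrane protein, and Pkp4 (mean 0.78) were called in both ploidies. Ptrf, a caveolar coat gene, was called in 2n alone (0.70 in 2n and 0.31 in 4n, mean 0.50). Des, desmin, was called in 4n alone (0.52 in 2n and 0.83 in 4n, mean 0.68). The difference between ploidies was not tested. Pkp1 and Pkp3, plakophilins of epithelia, had 3 and 4 UMIs in all CMs.

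Of 7 further scaffold and tight junction genes 5 were measured, and 1 was higher and 1 lower in each ploidy. For this list and those that follow, 17.2% (2n) and 17.4% (4n) of all genes were higher and 15.5% and 17.1% lower. The scaffold counts were thus near the shares of all genes. Jam3 (mean -1.40) was the lower gene in both ploidies. The higher gene was the endothelial Cldn5 in 2n (1.49, mean of both ploidies 0.81) and Dlg1 in 4n (0.71, mean 0.48). Of 6 channel and anchor genes 5 were measured and 3 were higher in each ploidy, among them Kcnj2 (mean 1.09), an inward rectifier potassium channel. Of 16 genes of the costamere, which holds the sarcomere to the side of the cell, 7 (2n) and 8 (4n) were higher and 1 lower, with Itga7, integrin α7, at 3.76 and the sarcoglycan Sgca at 1.30.

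**Figure D5:**
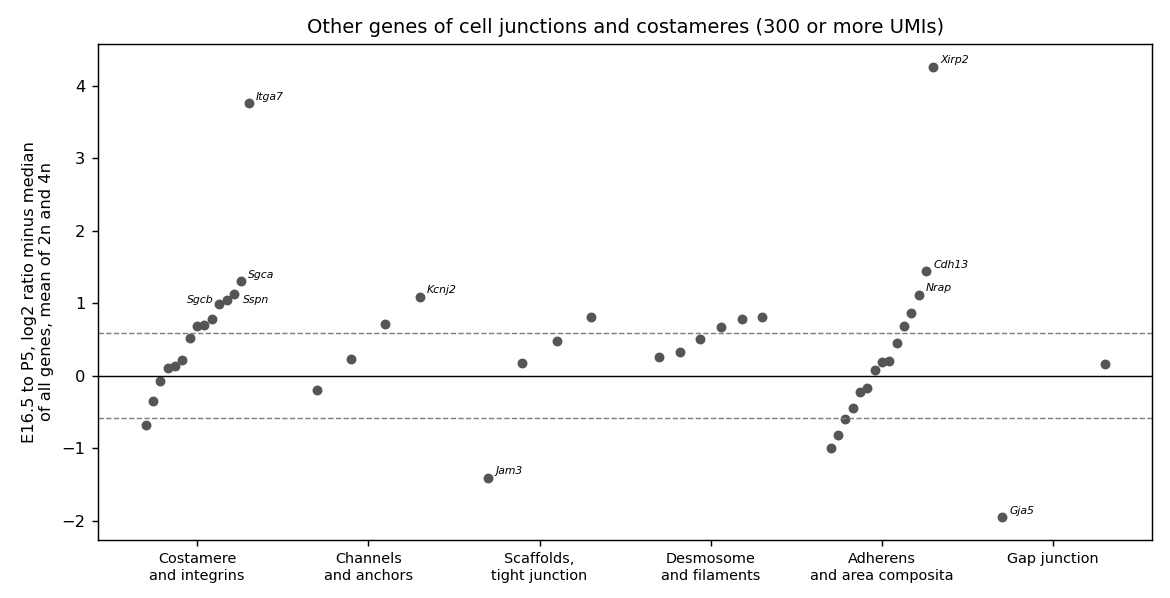
Mean of the 2n and 4n centred log2 ratios from E16.5 to P5 (vertical axis) for genes with 300 or more UMIs in 6 lists (horizontal axis), without those not reported here, with dashed lines at 1.5-fold and names for genes past 2-fold. Xirp2 (4.26) and Itga7 (3.76) are the highest and Gja5 (-1.95) the lowest.

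Among 6469 genes with at least 1000 UMIs, the profiles over the 6 libraries closest to that of Gja1 were those of Tsr3 (distance 0.0957), Mat2b (0.0988) and Sh3glb2 (0.104). Closest to Dsp were Rab21 (0.106), Rbm20 (0.178), a splicing factor of sarcomere transcripts, and Pdp1 (0.189). By GENCODE M21 on GRCm38, Gja1 lies on chromosome 10 from 56377330 to 56402513, Dsp on chromosome 13 from 38151294 to 38198577, Pkp2 on chromosome 16 from 16213318 to 16272712 and Jup on chromosome 11 from 100368958 to 100397763. Cdh2, Dsg2 and Dsc2 lie on chromosome 18, Ctnna3 on chromosome 10, Vcl on chromosome 14 and Tjp1 on chromosome 7. No gene in the count tables overlapped a member on its own strand.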

How the data were processed

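Single-cell 3′ libraries (10x v2) of sorted CMs were counted by the authors with Cell Ranger and STAR (versions not given in the sources used here) against mm10/GRCm38, and Seurat 2.3.0 is named in the submitters' processing notes. The deposited tables hold raw UMI counts per gene and cell. The age label of the E16.5-4n library differs in its last digit from its title, which was used. The 10 genes, the lists and the comparisons were chosen with earlier results of these data known.

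UMIs were summed per library over CMs (1 or more UMIs of each of 4 sarcomere genes), which also keeps doublets, as no caller was run. Ratios were taken between libraries over genes with 100 or more UMIs, with exact binomial intervals at 95%. Named genes were the 10 members, up to 4 genes per list with the largest mean difference from E16.5 to P5 (300 or more UMIs), the relatives Ctnna1, Ctnnb1, Pkp4, Gja5 and Gjc1, and the 3 genes nearest to Gja1 and to Dsp. Cldn5, Pkp1 and Pkp3 and the sarcomere genes were named beside results they touch. Genes that fell under this rule but are withheld are not reported here. Fits used edgeR 4.0.16 (R 4.3.3; TMM, filterByExpr, quasi-likelihood test, Benjamini-Hochberg over all genes, two-sided) with age or library as a term, and DESeq2 1.42.0 as an alternative. The scripts were tested on simulated data. The classes of CMs come from the same libraries, and library was a term in their fits. Their p-values thus measure how the difference within a library varied over these 6 libraries. In the ploidy fit they measure how the ploidy difference varied over the ages. The ploidies of an age shared their litters, so the 6 libraries are not independent units, and pooled sorts give no spread between animals.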

Additional observations from a re-analysis of the deposited data

How the results depend on the processing

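The counts of members past 1.5-fold depended most on the centring. Without it, 1 member was higher and 2 lower from E16.5 to P1 in 2n, and 1 higher and 2 lower from E16.5 to P5 in 2n. In 4n it gave 1 lower from E16.5 to P1, 0 higher and 1 lower from P1 to P5, and 2 higher and 3 lower from E16.5 to P5. Leaving the 50 most abundant genes out of the total as well, a setting added after the data were seen, gave 0 higher and 1 lower from P1 to P5 and 2 higher from E16.5 to P5 in 4n. With a fold of 2, 1 member was higher from E16.5 to P1 in 2n, 2 from E16.5 to P5 in each ploidy and 0 from P1 to P5 in 4n. Without CMs that had a cycling UMI, 1 was higher from P1 to P5 in 2n, 1 lower from E16.5 to P1 in 4n, 0 higher and 1 lower from P1 to P5 in 4n, 2 higher from E16.5 to P5 in 4n, and 1 lower in 4n than in 2n at P5. Dsc2 from P1 to P5 in 4n was lost (0 higher) without CMs that had a stromal UMI, without the CMs of the highest 5% of UMIs and with means over CMs, and 1 was then lower without stromal CMs and with thinning to 1000 UMIs. In cycling 4n CMs, 1 member (Gja1) was lower with thinning and without stromal CMs. Shares of all genes were counted in the main setting alone, so none stands beside the counts of this paragraph.

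In the ploidy fit, 2 members (Gja1 and Pkp2) were lower with DESeq2 and with no filter on low counts, and 0 to 2 when each age was left out, 2 being the value without P5. In the cycling fit the 4 calls became 1 without the library term (Gja1), 2 with total UMIs or with thinning (Gja1 and Dsp), and 2 to 4 when a library was left out, 2 without P1-4n. In the stromal fit the 5 calls became 1 without the library term (Pkp2), and 2 members (Jup and Tjp1) were higher with total UMIs. The shares of all genes called in these settings were not counted, and the cause of these shifts was not tested.

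Values near 0 changed sign in some settings. In the ploidy fit Cdh2 had 0.042 with total UMIs and 0.081 without stromal CMs (-0.046 to 0.041 leaving out an age), Dsp had -0.0052 with DESeq2 and -0.0010 with thinning (-0.013 to 0.11), Dsg2 had 0.0079 without cycling CMs (-0.19 to 0.072), and Ctnna3 had -0.11 to 0.025 leaving out an age. In the cycling fit Dsg2 had 0.031 without stromal CMs and Vcl 0.022 with total UMIs. In the stromal fit Jup had -0.0058 with DESeq2, -0.013 with no filter and -0.052 with thinning (-0.029 to 0.053 leaving out a library). Dsg2 had 0.039 without the library term and 0.17 with total UMIs (-0.11 to 0.042), Vcl had 0.12 with total UMIs and 0.10 with thinning, and Tjp1 had -0.37 with thinning. Intervals cover counting error only, and with 1355 to 2470 UMIs in all CMs, Dsg2, Dsc2, Ctnna3 and Tjp1 are the least precise.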
